A study of Mus musculus with 18 samples.

Results

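The 2iL-iPSCs were compared with MEF cells, the mouse embryonic fibroblasts of the strain and transgenic design from which such clones were made, across all genes that do not lie on the X or Y chromosome. The members were 4 of the 18 RNA-Seq libraries of the series, chosen by their titles: clones 3 and 6 of the 2iL-iPSCs, and libraries 1 and 2 of the MEF cells. Both groups carried the Tet-On-OSKM design, in which doxycycline (DOX) drives a single polycistronic cassette of Oct4, Sox2, Klf4 and c-Myc from the Col1a1 locus through the M2rtTA transactivator at Rosa26, on a (C57BL/6 x 129S4/SvJae)F1 background. MEF cells were at passage 4 in DMEM plus 10% FBS, with no DOX named in their labels. The 2iL-iPSCs had been reprogrammed from such fibroblasts, seeded on mitomycin-c treated feeder cells, in 2iL (the MEK inhibitor PD0325901, the GSK3 inhibitor CHIR99021 and the cytokine LIF) with DOX, and were at passage 2 (clone 3) and passage 3 (clone 6). For their later culture, the GEO label names N2B27 plus DOX, but the design text of the series and the methods of the study describe 2iL after removal of DOX at picking, so whether the cassette was on at harvest is not settled by these sources. Each iPSC library is 1 clone, and medium, passage and cell state cannot be told apart in this comparison. The 6 libraries of 2iL-ESCs (days 18, 25 and 38) served as a reference for the iPSC side. By the methods of the study, the ESCs were 1 Tet-On-OSKM/Oct4-GFP line, derived from a cross of Tet-On-OSKM with Oct4-GFP mice. Tests against them therefore measure the spread within that line and between the clones, not the spread between ESC lines.

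Fibroblasts are mesenchymal cells that secrete and pull on a collagen-rich matrix, spread on stress fibres and carry the Hox code of their place in the body. Naive pluripotent cells form tight epithelial colonies, run a short G1 phase, and are held in their state by Oct4, Sox2, Nanog and a set of supporting factors under LIF, WNT and low ERK signalling. Reprogramming therefore involves loss of the mesenchymal programme, gain of E-cadherin and the epithelial programme, and activation of the endogenous pluripotency network and of genes that DNA methylation keeps silent in somatic cells.

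Values are FPKM, fragments per kilobase of transcript scaled to the depth of the library. A gene entered the limma test if any of the 4 libraries exceeded an FPKM of 1, and was tested on log2(FPKM + 1). It was called where the Benjamini-Hochberg adjusted p-value was under 0.05 and mean FPKM differed more than 2-fold. A gene listed at 0 in both libraries of 1 group could enter only through the other group, which set its direction in advance. Differences are given as 2iL-iPSCs minus MEF cells on the log2(FPKM + 1) scale with their SE (n = 2 libraries per group), a scale that understates the change of low genes. Of 13709 genes tested, 3969 (29.0%) were higher and 3877 (28.3%) lower in 2iL-iPSCs, together 57.2% of the genes. These shares are the background for each gene list described here, and the median difference over all genes tested was 0.10. More than 16-fold changes were seen for 1142 higher and 1333 lower genes, those listed at 0 in the other group included. The libraries of the 2 groups did not overlap in 12268 genes (89.5%), against 57.2% called.

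The fibroblast and iPSC profiles lay far apart compared with the replicates. Over the 13709 genes, the Euclidean distance of log2(FPKM + 1) was 203 to 205 between an iPSC clone and a MEF library, 47.4 between the clones and 34.8 between the MEF libraries. Between the clones and the 2iL-ESCs it was 55.6 to 69.9. The median absolute log2 difference per gene was 0.18 between clones 3 and 6 and 0.098 between MEF libraries 1 and 2, and 278 and 103 genes differed by more than 1. Nothing in the sources says that the MEF libraries came from separate cultures or embryos, so p-values measure the spread between these libraries. An exact permutation test of 2 against 2 libraries cannot give a p-value under 0.333. Ribosomal protein genes took 17.1% and 19.08% of summed FPKM in the clones and 12.4% and 12.1% in the MEF libraries, and this was not corrected for. With TPM in place of FPKM, the median difference over all genes moved from 0.10 to -0.02.

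**Figure D1:**
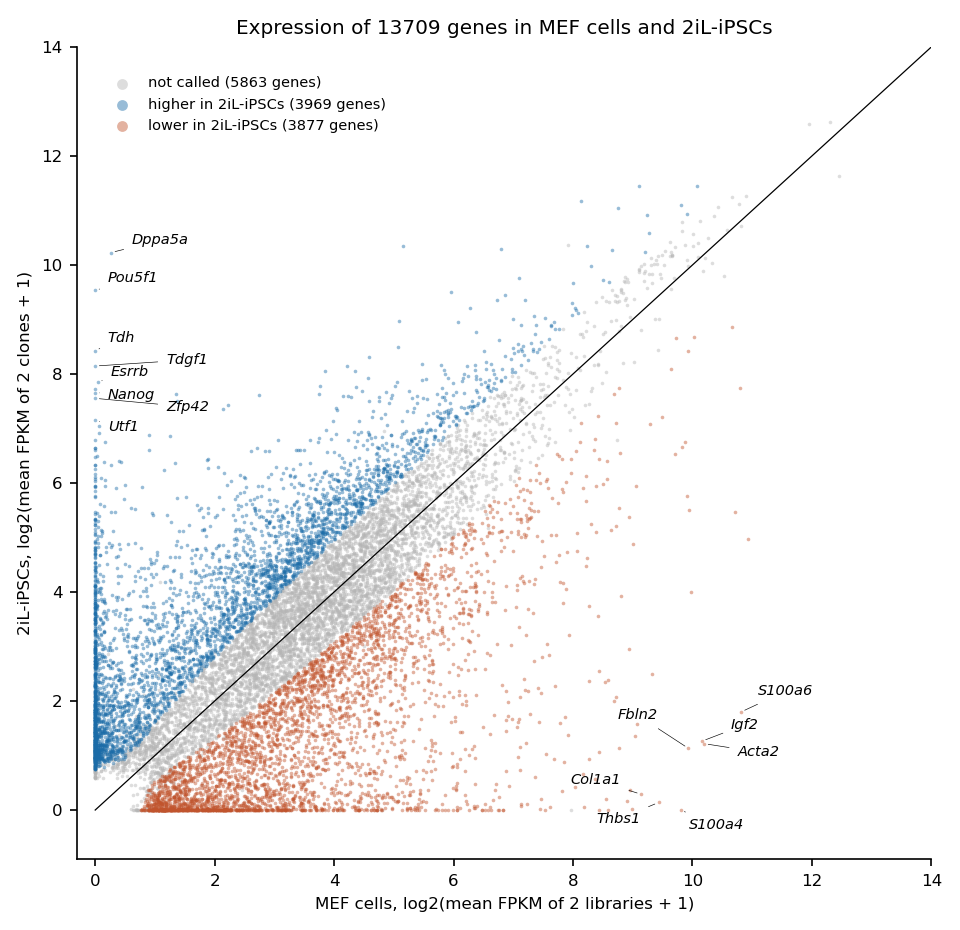
Each point is 1 of 13709 genes, placed by log2(mean FPKM + 1) in MEF cells (x axis) and in 2iL-iPSCs (y axis), with the line of equal expression. Blue points are the 3969 genes called higher in 2iL-iPSCs, orange points the 3877 called lower and grey points the 5863 not called, and the genes with the largest changes lie along the 2 axes.

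A set of 99 genes was listed at 0 in both MEF libraries with an FPKM over 10 in both clones, and 61 genes showed the opposite. A listing at 0 is not always absence in these files. Snrpf, a core protein of the spliceosome that dividing cells need, was listed at 0 in both MEF libraries and at 107 and 112 in the clones, with 62.0 to 121 in the 14 other libraries of the series. For genes listed at 0, the value of each library is therefore given without a fold change. In bulk RNA, fewer cells of a type and less RNA per cell cannot be told apart.

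Of the 4 reprogramming factors, 2 were higher, 1 was lower and 1 was not called. Pou5f1 (encoding Oct4) reached 668 in clone 3 and 811 in clone 6 and was listed at 0 in both MEF libraries, a difference of 9.53 ± 0.13. Sox2 had 118 and 113 in the clones and 1.15 and 1.59 in the MEF libraries, 84.5-fold higher (5.63 ± 0.13, adjusted p = 1.26e-05). Klf4 was not called. Its FPKM was 28.6 and 22.4 in the clones and 30.6 and 32.3 in the MEF libraries (-0.30 ± 0.14, adjusted p = 0.11), with both clones below both MEF libraries. Myc had 16.7 and 16.1 in the clones and 31.3 and 35.7 in the MEF libraries, a decrease of 2.04-fold (-0.98 ± 0.11, adjusted p = 0.00081), and without MEF library 2 the difference was -0.89 and no longer past 2-fold. Mean Klf4 and Myc values were thus no higher in the clones than in the fibroblasts. Gene-level FPKM can hold reads of the cassette as well as of the endogenous genes for these 4 factors. In the 2iL-ESCs, Pou5f1 ranged from 596 to 843 and Sox2 from 102 to 228.

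The pluripotency network was higher in 2iL-iPSCs throughout the genes tested. All 18 tested pluripotency transcription factors rose (median difference 4.35), and 25 of 26 other pluripotency genes rose (median 5.94). With a pseudocount of 0.1 in place of 1, these medians were 6.76 and 8.85, since 5 and 17 of the genes were listed at 0 in both MEF libraries. Nanog, a homeobox factor of the naive state, had 195 and 207 in the clones and was listed at 0 in both MEF libraries. The orphan nuclear receptor Esrrb had 216 and 245 against 0 and 0.062. Zfp42 (Rex1), a marker of the inner cell mass, had 177 and 196 against 0 in both MEF libraries. No tested pluripotency factor of the list overlapped between the groups, but 89.5% of all genes tested did not overlap either, so this does not set the list apart. Rif1, a telomere-associated factor, rose from 4.17 and 4.64 to 56.2 and 37.7. The smallest rise among them was that of Klf5, from 8.98 and 9.69 to 30.9 and 28.8 (3.19-fold), so a few members such as Klf5, Klf2 (6.35 and 6.70 against 86.7 and 103) and Zfp57 (19.4 and 19.6 against 268 and 264) were already expressed in fibroblasts.

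The 10 largest rises among the genes tested belonged to Dppa5a, Pou5f1, Tdh, Tdgf1, Esrrb, L1td1, Nanog, Zfp42, Utf1 and Fbxo15. Dppa5a, an RNA-binding protein of early embryos, showed the largest difference, with 1083 and 1314 in the clones against 0 and 0.40 (9.98 ± 0.20). Tdgf1, the Nodal co-receptor, had 261 and 304, L1td1 215 and 204, and Utf1 140 and 142, each listed at 0 in both MEF libraries. Dppa2 (79.6 and 57.2), Dppa3 (43.1 and 34.6) and Dppa4 (94.8 and 99.0) were likewise listed at 0 in both MEF libraries. The exception in the list was Spp1, which encodes the secreted glycoprotein osteopontin. Spp1 was abundant in both states but fell from 742 and 862 in MEF cells to 261 and 282 in the clones, 2.95-fold (-1.56 ± 0.12). Otx2, a factor of the later, formative state, had 0.91 and 0.53 in the clones and did not reach the expression minimum.

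**Figure D2:**
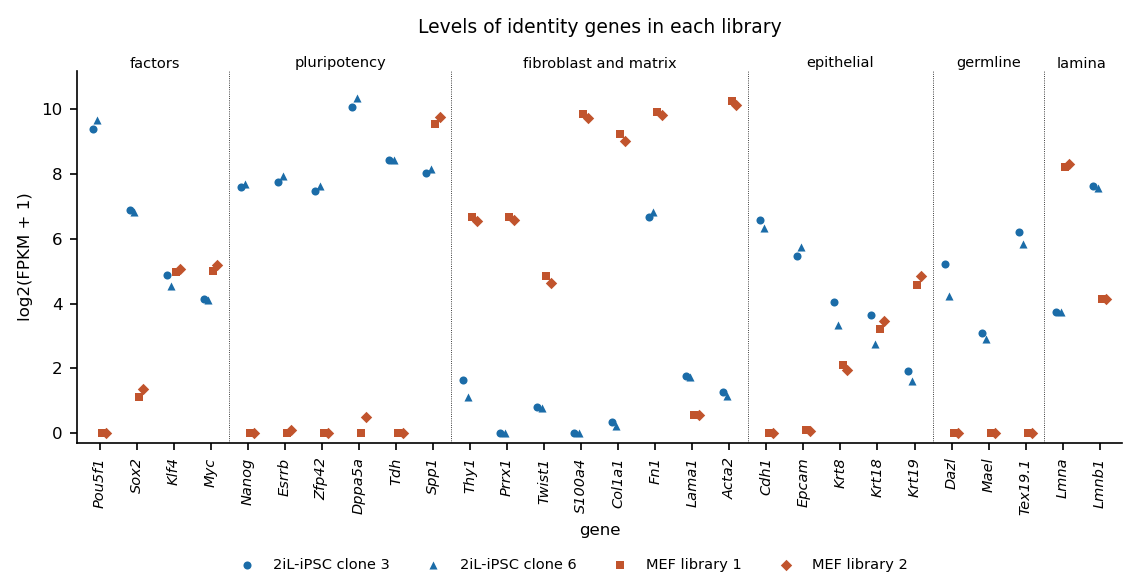
Each column is 1 gene and each symbol 1 library, blue for 2iL-iPSC clones 3 and 6 and orange for MEF libraries 1 and 2, on the log2(FPKM + 1) scale of the y axis. The replicates of a group nearly coincide for most genes, Klf4 and Krt18 were not called, and Spp1, Krt19 and Lmna lie higher in MEF cells.

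Promoter sequences of 4 members are shown for the motifs or CpG sites they hold. A RefSeq window of GRCm38.p6 from 250 bases before to 50 bases after the start was matched to 9973 of the 13709 genes, taking the window nearest to the 5′ end of the gene in the files. The composite Oct-Sox element, searched on both strands, occurred in 1 of these 9973 windows (0.01%), that of Nanog. It lies on the reverse strand and starts 75 bases before the start site, in chr6:122707239-122707538 (+ strand). The single octamer ATGCAAAT, which the composite element does not include in full, also searched on both strands, was found in 1.48% of the windows of higher genes, 1.49% of lower genes and 1.41% of all. Zfp42 holds 1 octamer on the reverse strand, in chr8:43306960-43307259 (- strand). The CArG box, the motif that serum response factor binds, was found in 0.94% of the windows of higher genes, 1.78% of lower genes and 1.23% of all. Among the actin, contractile and adhesion genes, 4 of 25 windows held it, those of Cnn2, Myl9, Srf and Vcl (members named after their windows were read), and the window of Myl9 is chr2:156775214-156775513 (+ strand). The AP-1 site TGANTCA was in 4.42%, 6.19% and 4.64%. The number of CpG sites per window had a median of 21 over all genes, but 7.5 in the fibroblast identity genes, 12.5 in the pluripotency transcription factors and 19.5 in the germline genes. Dazl, a germline gene described with the other germline genes, has 28 CpG sites in chr17:50293571-50293870 (- strand). The 4 windows are printed 5′ to 3′ on the strand of the gene, with the motif (Nanog, Zfp42, Myl9) or each CpG (Dazl) in capitals.
Nanog: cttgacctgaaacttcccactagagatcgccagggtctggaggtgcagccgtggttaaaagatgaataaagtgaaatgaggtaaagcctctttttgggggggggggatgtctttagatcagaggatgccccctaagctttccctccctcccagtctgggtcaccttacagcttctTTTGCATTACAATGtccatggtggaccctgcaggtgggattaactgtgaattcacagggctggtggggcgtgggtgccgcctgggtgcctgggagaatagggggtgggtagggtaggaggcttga
Zfp42: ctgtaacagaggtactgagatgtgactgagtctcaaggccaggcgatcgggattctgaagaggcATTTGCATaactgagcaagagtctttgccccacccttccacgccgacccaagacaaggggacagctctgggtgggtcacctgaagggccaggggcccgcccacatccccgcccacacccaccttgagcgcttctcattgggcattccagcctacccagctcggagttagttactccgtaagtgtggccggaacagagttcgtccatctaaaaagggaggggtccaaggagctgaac
Myl9: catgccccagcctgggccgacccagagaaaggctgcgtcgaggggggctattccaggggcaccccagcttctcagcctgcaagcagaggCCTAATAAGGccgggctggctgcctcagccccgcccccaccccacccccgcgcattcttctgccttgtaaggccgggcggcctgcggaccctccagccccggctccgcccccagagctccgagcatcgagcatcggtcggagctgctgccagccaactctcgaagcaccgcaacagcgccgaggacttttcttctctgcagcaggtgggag
Dazl: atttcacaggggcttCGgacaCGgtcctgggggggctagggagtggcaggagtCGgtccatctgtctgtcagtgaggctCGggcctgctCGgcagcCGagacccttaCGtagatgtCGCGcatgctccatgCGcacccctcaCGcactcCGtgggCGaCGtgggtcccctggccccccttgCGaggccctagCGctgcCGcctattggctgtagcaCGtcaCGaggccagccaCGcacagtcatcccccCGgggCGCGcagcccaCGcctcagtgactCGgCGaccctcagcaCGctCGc

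The fibroblast programme was lower throughout. All 28 tested fibroblast identity genes fell (median -4.59), as did 21 of 22 collagen genes (median -5.28), 35 of 40 matrix glycoproteins and matrix enzymes (median -3.41) and 26 of 29 actin, contractile and adhesion genes (median -3.95). Among the tested genes, 9 identity, 4 collagen, 5 matrix and 2 contractile genes were listed at 0 in both clones, which set their direction in advance. The surface marker Thy1 had 101 and 92.5 in the MEF libraries and 2.10 and 1.17 in the clones, 59.1-fold lower. Prrx1, a homeobox factor of mesenchyme, had 101 and 94.4 in MEF cells and was listed at 0 in both clones. Twist1, which drives mesenchymal identity, had 27.8 and 23.8 against 0.75 and 0.72. The mildest loss in the identity list by fold was that of Zeb1, a repressor of E-cadherin, from 12.8 and 12.5 to 5.32 and 3.88 (2.75-fold), a call lost without either MEF library (adjusted p = 0.058 to 0.061), while its paralog Zeb2 went from 26.6 and 24.4 to 0.078 and 0.11. Twist2 differed between the MEF libraries themselves (5.61 and 41.7) and was listed at 0 in both clones, and without either clone it was no longer called (adjusted p = 0.163 and 0.165). Meox2 was listed at 0 in both clones against 1.63 and 1.04, a call lost without either clone (adjusted p = 0.0504 to 0.0511). Meox1 and Tcf21 were under the expression minimum in all 4 libraries.

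The secreted matrix was among the most reduced groups. Col1a1 had 609 and 518 in MEF cells and 0.27 and 0.17 in the clones (-8.85 ± 0.12), and Col1a2 had 516 and 440 against 0.14 and 0.10. Both chains of type I collagen were also lower in the clones than in the 2iL-ESCs, which had medians of 1.15 and 0.65. Col3a1 (0.15 and 0.017 against 176 and 121) and the cartilage collagen Col2a1 (1.61 and 0.90 against 49.7 and 47.8) fell, and Col5a3 showed the smallest called fall of the collagens (0.37 and 0.56 against 1.76 and 1.95). The cassette sits in the Col1a1 locus in all libraries of both groups. S100a4, the fibroblast calcium-binding protein, was the most reduced of the genes tested, at 932 and 850 in MEF cells and listed at 0 in both clones. Tnc (tenascin C) had 186 and 204 against 0.068 and 0. Thbs1 (thrombospondin 1) had 721 and 662 against 0.17 and 0.034, Lox (the collagen cross-linking enzyme) 520 and 495 against 0 and 0.033, and Timp2 486 and 506 against 0.31 and 0.27. S100a6, Fbln2, Igf2 and Acta2 completed the 10 most reduced genes, with MEF values between 959 and 1800.

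Not all of the matrix was lost. Fn1 (fibronectin) kept 101 and 113 in the clones against 964 and 914, and Sparc kept 106 and 93.1 against 956 and 858. A few matrix genes rose or were not called. Lama1, the laminin chain of early embryonic basement membrane, rose from 0.48 and 0.46 to 2.42 and 2.32 (5.04-fold, 1.20 ± 0.13), and Fbln1 rose from 10.1 and 9.77 to 25.2 and 27.2 (2.64-fold, 1.32 ± 0.10). Lamc1 (72.1 and 58.4 against 40.4 and 40.9), Nid2 (60.9 and 62.3 against 32.4 and 29.6) and Col18a1 (28.4 and 26.3 against 17.7 and 17.9) were not called, since each difference was under 2-fold, and Nid2 passed it without clone 3 or MEF library 1 (differences 0.99 and 1.03). The basement membrane genes Col4a1 and Nid1 fell, with Col4a1 at 3.87 and 2.95 against 175 and 178 and Nid1 at 25.1 and 24.0 against 208 and 226. Mfap5 was not called (5.26 and 0.86 against 8.76 and 8.63, adjusted p = 0.059), and without clone 3 it was (difference -2.38).

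Genes of the contractile apparatus were among those reduced. Acta2, smooth muscle actin, had 1214 and 1129 in MEF cells and 1.43 and 1.23 in the clones, 883-fold lower. Tagln was listed at 0 in both clones against 58.4 and 130. Myl9, whose promoter window holds a CArG box, had 166 and 142 against 2.83 and 1.97 (64.2-fold). Myh9, a non-muscle myosin heavy chain, was at 59.9 and 61.8 against 329 and 334 (5.46-fold), and Tln1, which links integrins to actin, at 28.7 and 26.4 against 111 and 118 (4.16-fold). Cnn3 (273 and 258 against 227 and 208), Pxn (14.2 and 15.7 against 25.6 and 29.2) and Srf, which encodes serum response factor (13.1 and 14.8 against 19.3 and 20.7), were not called. The integrin subunit Itgb1 was 18.0-fold lower (30.2 and 26.8 against 499 and 529), and Cav1, the coat protein of caveolae, had 0.082 and 0 against 294 and 283. Actg2 (0.090 and 0 against 68.9 and 63.0) and Tagln2 (23.5 and 18.8 against 168 and 185) were lower too. The smallest called fall of the list was that of the integrin subunit Itga1 (0.93 and 0.14 against 2.18 and 1.83), a call lost without either MEF library (adjusted p = 0.17 to 0.22) and with a pseudocount of 0.1.

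The labelled cell types were checked against marker lists. All 7 pluripotent markers exceeded an FPKM of 1 in both clones and 0 of 7 did in MEF cells. All 11 fibroblast markers exceeded 1 in both MEF libraries, and their summed FPKM was 1783 and 1505 in MEF cells, 4.14 and 2.68 in the clones and 4.34 to 7.06 in the 2iL-ESCs. The part of feeder cells in the values of the clones was not tested. The MEF libraries also held macrophage markers (summed FPKM 144 and 129, with 8 and 7 of 10 over 1, against 5.58 and 9.31 in the clones). Of these, Lyz2 had 111 and 102, Csf1r 2.73 and 2.08 and Adgre1 1.17 and 1.02 in MEF cells, and Ptprc 0.62 and 0.50. The 10 macrophage markers include Cd68, which had 5.46 and 9.28 in the clones against 14.5 and 12.8, was not called, and made up most of the sum of the clones. Smooth muscle markers summed to 136 and 130 in MEF cells (5 of 5 over 1) against 7.48 and 10.6 in the clones, and 2 of the 5, Actg2 and Cnn1, are also in the contractile list. Skeletal muscle markers summed to 27.5 and 27.4 against 2.23 and 2.76, and Des, which is on both muscle lists, had 25.0 and 25.8 of that sum in MEF cells. Endothelial markers summed to 11.5 and 13.9 in MEF cells against 3.63 and 2.78 in the clones, but did not share a direction. Of 4 tested, 2 were lower in the clones, among them Kdr (0.14 and 0.086 against 7.11 and 9.85). Tie1 was higher in the clones (1.48 and 1.63 against 0 in both MEF libraries), and Tek was not called. Extraembryonic endoderm markers summed to 7.22 and 6.68 in MEF cells against 0.76 and 1.20 in the clones. Neural and glial markers summed to 22.6 and 21.1 in MEF cells, among them Sox10 with 2.07 and 2.44, and to 47.4 and 66.1 in the clones, where Tubb3 gave most of the sum. Trophoblast markers summed to 4.17 and 3.20 in the clones and to 0.19 and 0.51 in MEF cells. Red blood cell markers summed to at most 0.50 and keratinocyte markers to at most 3.33 in any of the 4 libraries. Decreases were seen in both immune genes and macrophage markers, and in both contractile genes and smooth muscle markers. Between 2 groups, any sets of lower genes fall together in this way, and the part of such cells in these results was not tested.

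Epithelial genes rose in 24 of 27 cases tested (median 2.15), and 4 of the 27 were listed at 0 in both MEF libraries. Cdh1 (E-cadherin), which joins cells of a colony, had 95.8 and 79.5 in the clones and was listed at 0 in both MEF libraries. Epcam rose from 0.063 and 0.056 to 43.4 and 52.5. The tight junction gene Cldn4 (23.2 and 26.1 against 0 and 0.11) and the serine protease inhibitor Spint1 (43.9 and 43.1 against 0.30 and 0.10) followed the same pattern. The keratins did not move together. Krt8 rose from 3.33 and 2.83 to 15.7 and 9.08 (4.02-fold), a call that was lost without either MEF library (adjusted p = 0.086 to 0.099). Its partner Krt18 was not called (11.4 and 5.70 against 8.37 and 9.91), and Krt19 fell 10.6-fold, from 23.1 and 28.0 to 2.76 and 2.05 (-2.96 ± 0.16). Both Krt8 and Krt18 were higher in the clones than in the 2iL-ESCs, whose medians were 2.83 and 2.19. The splicing factor Esrp2, counted with the epithelial genes, rose from 0.75 and 0.92 to 4.34 and 2.30, a call lost without either MEF library (adjusted p = 0.13 to 0.15). The desmosomal gene Dsp (0.55 and 0.58 against 1.12 and 1.11) was not called, just short of 2-fold, and was called lower without clone 6 or MEF library 2 (differences -0.45 and -0.44).

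Hox genes, which encode positional identity along the body axis, were expressed from all 4 clusters in MEF cells and were lower in 2iL-iPSCs for 27 of the 31 genes tested (median -2.58). Of these 27 genes, 16 were listed at 0 in both clones. The loss covered 8 of 10 tested Hoxa genes, 8 of 8 Hoxb genes, 6 of 8 Hoxc genes and 5 of 5 Hoxd genes. Hoxc6 was the most abundant in MEF cells, at 37.7 and 35.0, followed by Hoxc8 at 24.7 and 25.6 and Hoxa7 at 22.5 and 21.3. Hoxc6 and Hoxc8 were listed at 0 in both clones and Hoxa7 had 0.65 and 0.57. At the 3′ side of the Hoxa cluster, Hoxa2 (3.11 and 3.35), Hoxa3 (5.53 and 5.02) and Hoxa4 (1.34 and 1.87 in MEF cells) were each listed at 0 in both clones. The 5′ ends of the Hoxa and Hoxd clusters were already low in these fibroblasts, with Hoxa13, Hoxd11, Hoxd12 and Hoxd13 under the minimum in all 4 libraries. The genes at the 5′ end of the Hoxc cluster behaved differently. Hoxc12 had 1.46 and 1.08 in the clones and was listed at 0 in both MEF libraries (1.18 ± 0.16, adjusted p = 0.0017), also above the 2iL-ESC median of 0.42. Its neighbour Hoxc13 was not called (1.70 and 1.73 against 0.82 and 1.11, adjusted p = 0.029 with a fold under 2), though it was without MEF library 2 (difference 0.57). Hoxa11 (0 in both clones against 1.15 and 0) was not called, but without MEF library 2 it was called lower (difference -1.10).

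**Figure D3:**
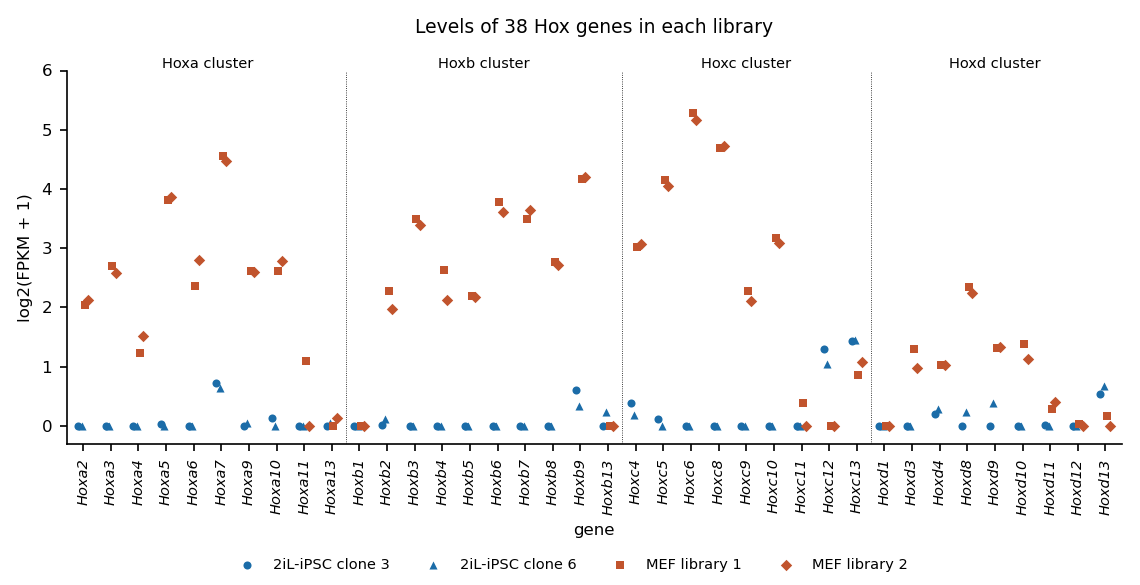
The y axis gives log2(FPKM + 1) of the Hox genes described, ordered from 3′ to 5′ within the 4 clusters, with 1 symbol per library (blue, 2iL-iPSC clones; orange, MEF libraries). The MEF libraries lie above the clones over most of each cluster, and at Hoxc12, Hoxc13 and the low Hoxd13 the clones lie above the MEF libraries.

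Germline genes, many of which are silenced by promoter methylation in somatic cells, rose in all 21 cases tested (median 2.96). Of these 21, 9 were listed at 0 in both MEF libraries, which set their direction in advance. Members under 1 in both MEF libraries, such as Tdrd12, Ddx4 and Sycp1, also entered only through the clones. The other 5 of the list, such as Asz1 (0.49 and 0.29 against 0 in both), were under the expression minimum. Dazl, an RNA-binding protein of germ cells, had 36.1 and 17.8 in the clones and was listed at 0 in both MEF libraries, with a 2iL-ESC median of 9.27. Mael, a piRNA pathway protein, had 7.53 and 6.48 against 0 in both, and Tex19.1 had 72.4 and 56.5 against 0 in both. Tdrd12 rose from 0.045 and 0.031 to 37.7 and 39.4. Dazl, Mael, Gtsf1 and Zfp42 were also higher in the clones than in the 2iL-ESCs. Calls of 3 members were lost without either MEF library, namely Tex101 (1.84 and 0.58 against 0 in both, adjusted p then 0.20), Ddx4 (4.07 and 2.63 against 0.55 and 0.40, then 0.056 to 0.064) and the meiotic gene Sycp1 (5.67 and 1.63 against 0.28 and 0.44, then 0.20 to 0.23).

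The enzymes of DNA methylation were themselves among the changed genes, with 11 of 15 higher and 2 lower (median 2.55). The de novo methyltransferase Dnmt3b rose from 0.30 and 0.41 to 87.8 and 78.2 (234-fold) and its cofactor Dnmt3l from 0.021 and 0.078 to 145 and 94.5. Its relative Dnmt3a rose 7.17-fold (35.9 and 23.9 against 4.31 and 4.02). The maintenance pair Dnmt1 (83.6 and 83.1 against 25.3 and 26.0, 3.25-fold) and Uhrf1 (209 and 222 against 19.8 and 19.4, 10.99-fold) also rose. The oxidising enzymes split. Tet1 rose from 0.25 and 0.20 to 39.2 and 28.2 and Tet2 from 2.17 and 2.04 to 13.3 and 13.5, whereas Tet3 fell from 3.08 and 3.03 to 0.89 and 0.62. The methyl-CpG reader Mbd2 fell from 29.5 and 24.7 to 6.87 and 5.84.

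Genes of the 2-cell-stage embryo, which flicker on in a small share of pluripotent cells, were higher in 12 of 13 cases tested (median 2.69). Of these 13, 11 were listed at 0 in both MEF libraries, which set their direction in advance. Compared with the 2iL-ESCs, 11 of the 13 were also higher in the clones, against a background of 2.65% of 12681 genes. Zscan4c had 16.8 and 14.7 in the clones and was listed at 0 in both MEF libraries, with a 2iL-ESC median of 5.05. Zscan4a (11.5 and 12.9) and Zscan4b (7.35 and 3.99) were also listed at 0 in both MEF libraries, as was Tdpoz4 (1.26 and 0.62), whose call was lost without either MEF library (adjusted p = 0.11). Zscan4d had 14.7 and 12.7 against a 2iL-ESC median of 2.704, and Zscan4f 19.2 and 15.5 against 4.25. Usp17lb had 7.84 and 3.46 with a 2iL-ESC median of 1.43, and its call against MEF cells was lost without either MEF library (adjusted p = 0.072). Eif1a was not called (94.7 and 67.2 against 87.8 and 89.4). The Zscan4 and Usp17l genes are near-identical copies, and since only uniquely mapped reads were kept, the values of the single copies are uncertain. Zfp352, Tcstv1 and Tcstv3 stayed under the minimum.

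Imprinted genes, expressed from 1 parental allele, did not share a direction. Of 34 tested, 10 were higher, 17 lower and 7 not called (median -0.96). The growth regulators that fibroblasts express strongly fell. Igf2 had 1123 and 1159 in MEF cells and 2.22 and 0.58 in the clones (816-fold), and its neighbour H19 had 2222 and 1696 against 44.5 and 16.1 (64.7-fold), which was still above the 2iL-ESCs (1.14 to 3.46). Grb10 had 314 and 299 against 2.97 and 5.37, and Dlk1 213 and 194 against 1.09 and 0.75. The maternally expressed non-coding RNAs of the Dlk1 region did not share a direction. Meg3 was not called and had 83.9 and 89.7 in the clones against 180 and 160 (-0.96 ± 0.10, just under 2-fold, and past it in 5 alternatives that kept the fold criterion, with -1.007 without clone 6 and -1.045 without MEF library 2), and Rian was not called either (131 and 121 against 213 and 175). Mirg, also from this region, was called higher (9.44 and 7.32 against 4.42 and 2.73, 2.34-fold), a call lost without any 1 of the 4 libraries (adjusted p = 0.051 to 0.15). The 2iL-ESC medians of Meg3 and Rian were 74.4 and 100. Igf2r, the receptor that clears Igf2, fell from 99.8 and 98.4 to 12.7 and 13.4, together with Airn, the antisense transcript at that locus (4.79 and 4.07 against 0.12 and 0). The largest rises were those of Phlda2, from 0.68 in both MEF libraries to 8.66 and 12.6 (15.6-fold), and Nespas (3.63 and 4.04 against 0 in both). Snrpn rose from 14.5 and 13.6 to 66.8 and 72.4, and Mest from 19.4 and 12.2 to 72.2 and 58.6, a call lost without clone 3 (adjusted p = 0.060). Zdbf2 (6.82 and 5.49 against 1.26 and 1.21) and Mkrn3 (1.59 and 1.98 against 0.28 and 0.33) rose too, as did Mcts2 (24.8 and 26.6 against 12.5 and 11.7), which fell under 2-fold with TPM (0.93). Ascl2 (3.68 and 2.01 against 0.35 and 0.68) lost its call without clone 3 or either MEF library (adjusted p = 0.056 to 0.13), and Zrsr1 (18.0 and 14.9 against 4.14 and 9.04) without clone 3, clone 6 or MEF library 1 (adjusted p = 0.076 to 0.23). Whether counting used strand is not given in the sources used here, so antisense pairs such as Igf2r and Airn may share reads.

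Among the list genes, the 5 largest differences between the clones themselves were those of Mfap5, Peg3, H19, Peg10 and Sycp1, in this order. Of these, Peg3, H19 and Peg10 are imprinted genes. Peg3 had 20.3 in clone 3 and 5.34 in clone 6, Peg10 26.7 and 9.66, and H19 44.5 and 16.1. Peg3 was called lower than MEF cells (37.8 and 33.1), but not without clone 6, where the difference was -0.77 and under 2-fold, nor without either MEF library (adjusted p = 0.28 to 0.32). Peg10 straddled the MEF values of 18.0 and 18.3, with clone 3 above and clone 6 below them.

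In the cell cycle list, 8 of 25 genes were higher, 9 lower and 8 not called (median 0.40), shares near those over all genes. Ccnd2 fell from 176 and 175 to 0.21 and 0.10 (-7.26 ± 0.10), and Ccnd1 from 137 and 156 to 29.8 and 32.7 (4.69-fold). Cdkn2a, which encodes p16 and p19, fell from 30.7 and 27.2 to 7.68 and 9.53 (3.36-fold), Cdkn2b from 29.9 and 29.8 to 1.11 and 1.64 (21.7-fold), and Cdkn1a (p21) from 359 and 397 to 94.7 and 73.3 (4.49-fold). The inhibitor Cdkn2c was lower (0.97 and 0.74 against 3.53 and 4.15), and Cdkn2d was not called (9.67 and 11.1 against 7.54 and 7.77). Ccnd3 was not called (123.1 and 118 against 81.9 and 87.0). The cyclins Ccne1, Ccna2 and Ccnb1 were higher, with Ccne1 at 113 and 107 against 17.6 and 17.9, Ccna2 at 65.5 and 68.0 against 11.1 and 12.1 and Ccnb1 at 153 and 177 against 16.1 and 14.7 (10.7-fold). The kinases Cdk1 (3.83-fold) and Cdk2 (5.36-fold), the phosphatase Cdc25a (3.21-fold) and the transcription factor E2f2 (11.3-fold) rose as well. Trp53 rose 2.54-fold (210 and 204 against 77.9 and 85.2), while its target Cdkn1a was lower.

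Of 25 telomere and genome stability genes, 23 rose and 2 were not called (median 2.76). Repair and replication genes were among them, with Msh6 at 198 and 199 against 12.8 and 12.01 (15.98-fold), Blm at 38.2 and 30.1 against 2.40 and 2.47 and Mcm10 at 49.5 and 52.9 against 4.13 and 3.97. The shelterin gene Terf1 rose 9.14-fold (58.4 and 48.4 against 6.37 and 5.32), but Terf2 and Acd were not called. Tert, the catalytic subunit of telomerase, had 3.47 and 3.45 against 1.72 and 1.66, a 2.05-fold rise that fell under 2-fold with TPM or median-ratio scaling.

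The lists of metabolic genes differed. Of 23 enzymes of threonine, glycine, serine and one-carbon metabolism, 16 rose and 2 fell (median 1.19). Tdh, the threonine dehydrogenase on which mouse pluripotent cells depend, had 345 and 342 in the clones and was listed at 0 in both MEF libraries. The glycine cleavage genes Gldc (55.5 and 63.0 against 0.15 and 0.39) and Amt (64.8 and 83.4 against 0.97 and 1.46) rose with it, as did Gcat, the enzyme that follows Tdh (28.6 and 42.5 against 6.90 and 6.84), and Shmt1 (52.0 and 65.1 against 6.99 and 6.07). Mthfd2l fell from 7.38 and 6.22 to 0.79 and 0.83, and Sardh was listed at 0 in both clones against 4.32 and 3.25. Phgdh, the first enzyme of serine synthesis, was not called (51.7 and 96.5 against 124 and 137), but without clone 6 it was (difference -1.32).

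Most glycolytic enzymes were not called, with 9 of 28 genes of glycolysis and pyruvate use higher, 4 lower and 15 not called (median 0.50). The share of higher genes was near the 29.0% over all genes, and the share of lower genes was under the 28.3% over all genes. The neuronal-type glucose transporter Slc2a3 rose 47.7-fold (158 and 170 against 3.49 and 3.37), while Slc2a1 was not called (79.1 and 66.4 against 33.6 and 39.9, 1.98-fold), although it was without clone 6 or MEF library 2 (differences 1.09 and 1.08). Gapdh rose 2.58-fold (2442 and 3150 against 1041 and 1127), a call lost without either MEF library (adjusted p = 0.069 to 0.078) and with quantile normalization. Pdk1, which restrains pyruvate entry into mitochondria, rose 12.2-fold (16.5 and 17.7 against 1.504 and 1.30). Hk1 was not called (15.2 and 17.1 against 29.0 and 32.9, 1.91-fold), though it was called lower without clone 6 or MEF library 1 (differences -0.97 and -0.98) and with each other scaling, and Slc2a4 was under the minimum. Pkm (1012 and 1229 against 1149 and 1221) and Ldha (489 and 545 against 690 and 704) were not called. Eno3, the muscle enolase, fell 6.24-fold. The other genes that fell were Pdk2, Pdk4 and Mpc2, and each lost its call without at least 1 library (Pdk2 without MEF library 1, at -1.01, Mpc2 without clone 3, at -0.94, and Pdk4 without clone 3, clone 6 or MEF library 1, at -0.85 to -0.59).

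The signalling pathways that 2iL acts on differed in their parts. In the ERK list, 12 of 19 genes were lower, 3 higher and 4 not called (median -1.09). The phosphatase Dusp4 fell from 28.1 and 38.9 to 0.92 and 0.92 (36.5-fold), the immediate-early gene Egr1 from 24.3 and 26.7 to 0.088 and 0, and Junb from 52.3 and 50.7 to 3.93 and 2.72. Dusp1 fell 3.25-fold (12.4 and 14.1 against 39.0 and 47.1) and Dusp5 3.79-fold (4.36 and 4.67 against 13.2 and 21.1), a call that Dusp5 lost without either clone (adjusted p = 0.071 to 0.076). The feedback gene Spry2 was not called (30.8 and 32.8 against 24.7 and 27.6). The Ets factors Etv4 (46.4 and 42.8 against 4.36 and 6.49, 8.22-fold) and Etv5 (108 and 110 against 7.24 and 7.39, 14.9-fold) were higher, and Etv1 (5.80 and 4.70 against 2.65 and 2.57, 2.01-fold) lost its call in 5 alternatives, among them those without clone 3 or either MEF library (differences 0.66 to 0.80). Dusp6 fell 2.25-fold (10.1 and 8.35 against 17.5 and 24.1), a call lost without clone 3, clone 6 or MEF library 2 (adjusted p = 0.067 to 0.10).

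In the LIF list, 7 of 14 genes were higher and 6 lower (median 0.54). The lower genes were Il6st, Jak1, Jak2, Stat3, Lif and Osmr, and the higher genes were Lifr, Socs2, Socs3, Pim1, Pim3, Gbx2 and Bcl3. The calls of Jak2 without MEF library 1 (adjusted p = 0.055) and of Lif without clone 6 or either MEF library (differences -0.84 to -0.57) were lost. The shared receptor subunit Il6st fell from 61.3 and 52.1 to 12.5 and 12.3, Jak1 from 68.5 and 65.8 to 10.1 and 9.38, and Stat3 from 74.2 and 50.7 to 28.7 and 26.5 (2.26-fold, a call lost without clone 3, clone 6 or MEF library 1, at -1.18 to -0.86). The LIF-specific subunit Lifr rose from 2.01 and 1.60 to 7.18 and 6.54. Osmr, the receptor subunit of a related cytokine, fell from 37.7 and 30.3 to 0 and 0.0060. The target genes were higher, with Socs3 at 43.0 and 36.2 against 12.6 and 9.88 (3.52-fold), Pim1 at 34.7 and 32.5 against 5.29 and 6.46 and Gbx2 at 24.6 and 24.4 against 0 and 0.11.

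In the WNT list, 10 of 25 genes were higher, 11 lower and 4 not called (median -0.11). Higher were Axin2, a feedback target, and several nuclear factors, with Axin2 at 15.7 and 12.7 against 2.57 and 2.10 (6.08-fold), Lef1 at 5.73 and 5.03 against 0.57 and 0.53, Tcf7 at 17.8 and 16.4 against 1.12 and 1.38, and Cdx1 at 18.8 and 15.9 against 0 and 0.032. Tcf7l1 (38.1 and 37.9 against 7.72 and 9.12) and the secreted antagonist Notum (25.2 and 23.0 against 1.17 and 1.91) also rose, as did Sp5 (5.92 and 2.87 against 0.070 and 0), whose call was lost without either MEF library (adjusted p = 0.067 to 0.070). Lower were Wnt5a (0.015 and 0 against 20.7 and 23.9), Fzd1 (0.36 and 0.61 against 27.9 and 22.8) and Dkk3 (0.77 and 0.86 against 23.0 and 16.2). The nuclear factor Tcf7l2 (2.83 and 1.54 against 8.39 and 7.21) and the receptor Lgr5 (0 in both clones against 1.28 and 0.86) also fell, and the call of Tcf7l2 was lost without either MEF library (adjusted p = 0.076 to 0.091). The ligand Wnt5b rose (2.59 and 2.86 against 0.41 and 0.38), and the call of the antagonist Sfrp1 as higher was lost without any 1 of the 4 libraries (adjusted p = 0.060 to 0.24). The receptor Fzd5 rose from 2.21 and 2.35 to 17.4 and 16.6. Ctnnb1, which encodes beta-catenin itself, was not called (210 and 222 against 231 and 238).

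TGF-beta signalling genes fell in 20 of 30 cases, rose in 5 and were not called in 5 (median -3.39). The ligand Tgfb3 (0 and 0.044 against 40.4 and 35.0), its receptor Tgfbr2 (0.052 and 0.029 against 42.4 and 40.0), the activin subunit Inhba (0 in both clones against 42.7 and 47.7) and the BMP antagonist Grem1 (0 in both clones against 104 and 109) were lower. Tgfb1 (1.17 and 1.32 against 18.6 and 22.9) and Tgfb2 (0.095 and 0 against 12.8 and 10.8) were lower as well, and the receptor Tgfbr1 was not called (7.43 and 5.42 against 8.11 and 7.07). The 5 that rose were genes known from Nodal signalling, namely Nodal (31.4 and 27.9 against 0 in both), its inhibitors Lefty1 (20.3 and 36.9 against 0.63 and 0.28) and Lefty2 (19.2 and 45.9 against 0 in both), the co-receptor Tdgf1 and the receptor Acvr2b (5.37 and 5.94 against 0.13 and 0.093). The BMP targets Id1 (7.602 and 10.9 against 125 and 146) and Id3 (25.7 and 22.9 against 182 and 181) fell 14.7-fold and 7.46-fold.

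**Figure D4:**
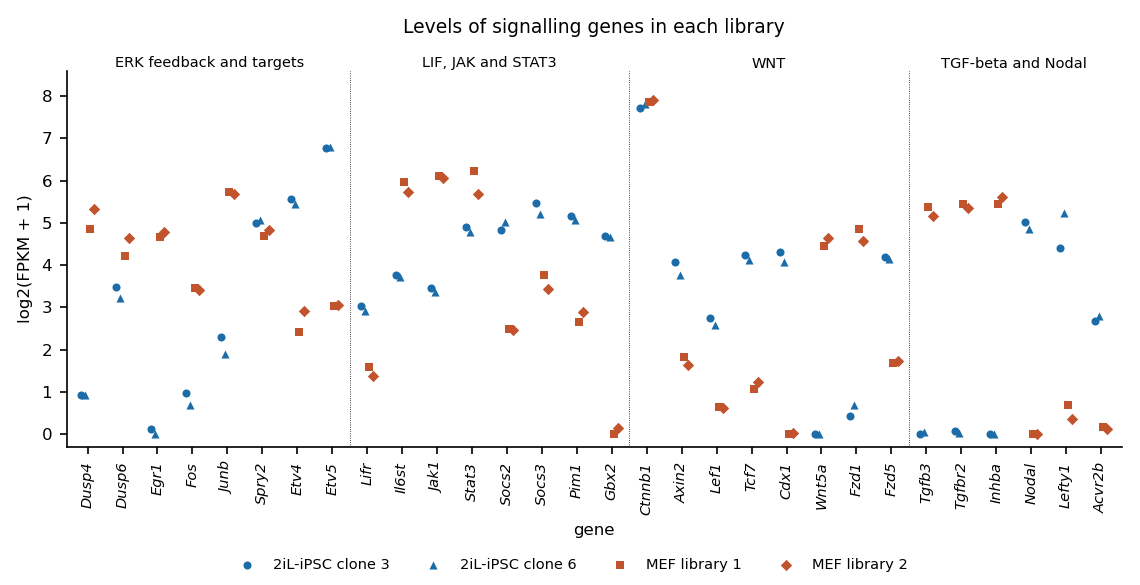
Each column is 1 signalling gene and each symbol 1 library (blue, 2iL-iPSC clones; orange, MEF libraries), on the log2(FPKM + 1) scale of the y axis. Il6st, Jak1 and Stat3 lie higher in MEF cells whereas Socs2, Socs3, Pim1 and Gbx2 lie higher in 2iL-iPSCs, and Ctnnb1 and Spry2 were not called.

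Chromatin regulators were mostly higher, with 17 of 29 polycomb and remodelling genes rising, 3 falling and 9 not called (median 1.38). Cofactors of Polycomb repressive complex 2 were among the genes that rose. Epop had 92.4 and 101 in the clones against 0.87 and 0.84 (113-fold), the DNA-binding protein Arid3b, from the same list, 20.2 and 23.6 against 0.35 and 0.47 (52.9-fold), Jarid2 50.5 and 41.2 against 2.79 and 2.02 (19.09-fold) and Mtf2 105 and 87.4 against 9.34 and 9.25, and the catalytic subunit Ezh2 rose 5.47-fold (76.9 and 67.1 against 13.4 and 13.0). The core subunit Eed rose 6.08-fold (196 and 159 against 28.7 and 29.6), and Suz12 3.24-fold (58.6 and 31.7 against 14.5 and 13.3), a call that Suz12 lost without either MEF library (adjusted p = 0.12 to 0.13). Ezh1, the paralog of Ezh2, was not called, and the cofactor Phf19 was lower (0.82 and 0.54 against 1.97 and 2.02), a call lost without either MEF library (adjusted p = 0.053 to 0.055). Paralogs of the BAF remodelling complex moved in opposite directions. Smarcc1 rose 2.66-fold (73.3 and 71.9 against 26.8 and 27.8) while Smarcc2 fell 3.06-fold (9.86 and 10.5 against 33.1 and 29.5). The ATPase Smarca4 was not called (49.2 and 49.97 against 40.0 and 38.8), and its paralog Smarca2 fell 5.52-fold (2.30 and 1.13 against 10.9 and 8.05), a call lost without either MEF library (adjusted p = 0.054 to 0.071).

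The lamin genes moved in opposite directions. Lmna, the A-type lamin of differentiated and mechanically loaded nuclei, fell 24.9-fold (12.2 and 12.4 against 295 and 319, -4.53 ± 0.09), and Lmnb1 rose 11.6-fold (198 and 189 against 16.8 and 16.6, 3.46 ± 0.09). Lmnb2 rose 5.29-fold and the lamin B receptor gene Lbr 5.39-fold. In all, 5 of 10 lamina genes rose and 3 fell, among the latter Sun2 and Syne1.

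Among RNA-binding regulators, 8 of 18 splicing genes rose, 3 fell and 7 were not called (median 0.73). The epithelial splicing factor Esrp1 had 6.70 and 5.22 in the clones and was listed at 0 in both MEF libraries. The 3 that fell were Mbnl1 and Mbnl2, muscleblind proteins known to favour splicing patterns of differentiated cells, and Celf2. Mbnl1 had 2.13 and 1.96 against 62.1 and 60.1 (29.8-fold), Mbnl2 3.76 and 3.30 against 113 and 121 (33.2-fold) and Celf2 1.03 and 0.59 against 17.4 and 17.8. Of the Lin28, Igf2bp and Hmga genes, Lin28a (79.3 in both clones against 0 in both MEF libraries), Lin28b (2.47 and 4.00 against 0 and 0.073) and Igf2bp1 (87.8 and 66.9 against 7.20 and 7.09) rose, Igf2bp2 was not called (28.4 and 21.1 against 33.8 and 36.4), Hmga2 fell 13.3-fold (17.0 ± 7.1 against 227 ± 19, mean ± SD, n = 2), and Hmga1 was not called (445 and 439 against 366 and 505), its direction turning with the scaling.

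Genes of antigen presentation and innate immunity were lower in 22 of 35 cases, higher in 1 and not called in 12 (median -1.13). B2m, the light chain of MHC class I, fell 72.4-fold, from 499 and 476 to 6.51 and 6.96, and H2-D1 12.9-fold, from 67.1 and 66.1 to 5.32 and 4.98. H2-K1 was not called and low in both states (9.47 and 8.81 against 9.07 and 8.67), and its direction turned with the scaling. Class I genes are close paralogs, so the split of reads between H2-K1 and H2-D1 is uncertain. The peptide transporter gene Tap1 fell from 5.94 and 4.96 to 1.15 and 0.39, a call lost without either MEF library (adjusted p = 0.057 to 0.067). The chemokine Cxcl12 went from 111 and 103 to 0.20 and 0.15. The chemokine Ccl2 (0.062 and 0 against 75.6 and 86.3) and Tlr4 (0 in both clones against 7.33 and 7.94) fell, and Irf1 rose 2.02-fold (13.9 and 16.7 against 7.83 and 7.28), a call lost in 5 alternatives, among them those without clone 6 or either MEF library (differences 0.80 to 0.97). Of the 8 macrophage markers tested, 7 were lower in the clones as well, and Cd68 was not called.

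Most genes that mark the early lineages were low in both states, with 14 of 24 under the expression minimum, 3 higher and 7 lower of 10 tested (median -1.39). Fibroblast-expressed mesodermal and endodermal factors fell, such as Gata6 (0.24 and 0.11 against 5.13 and 4.58), Foxf1 (0 in both clones against 2.81 and 3.72) and Tbx5 (0 in both clones against 1.57 and 1.88). Gata4 (0.32 and 0.34 against 1.64 and 1.47) and Nes (3.00 and 3.01 against 20.7 and 24.2) were lower, and Sox7 and Sox17 were under the minimum. Eomes (3.15 and 2.86 against 0.19 and 0.24), T (2.04 and 1.23 against 0.096 and 0) and Tubb3 (45.7 and 65.1 against 10.3 and 8.76) rose, and T lost its call without either MEF library (adjusted p = 0.060 to 0.069). Fgf5, a gene of the formative and primed states, was lower than in MEF cells (0.22 and 0.085 against 1.82 and 1.97).

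**Figure D5:**
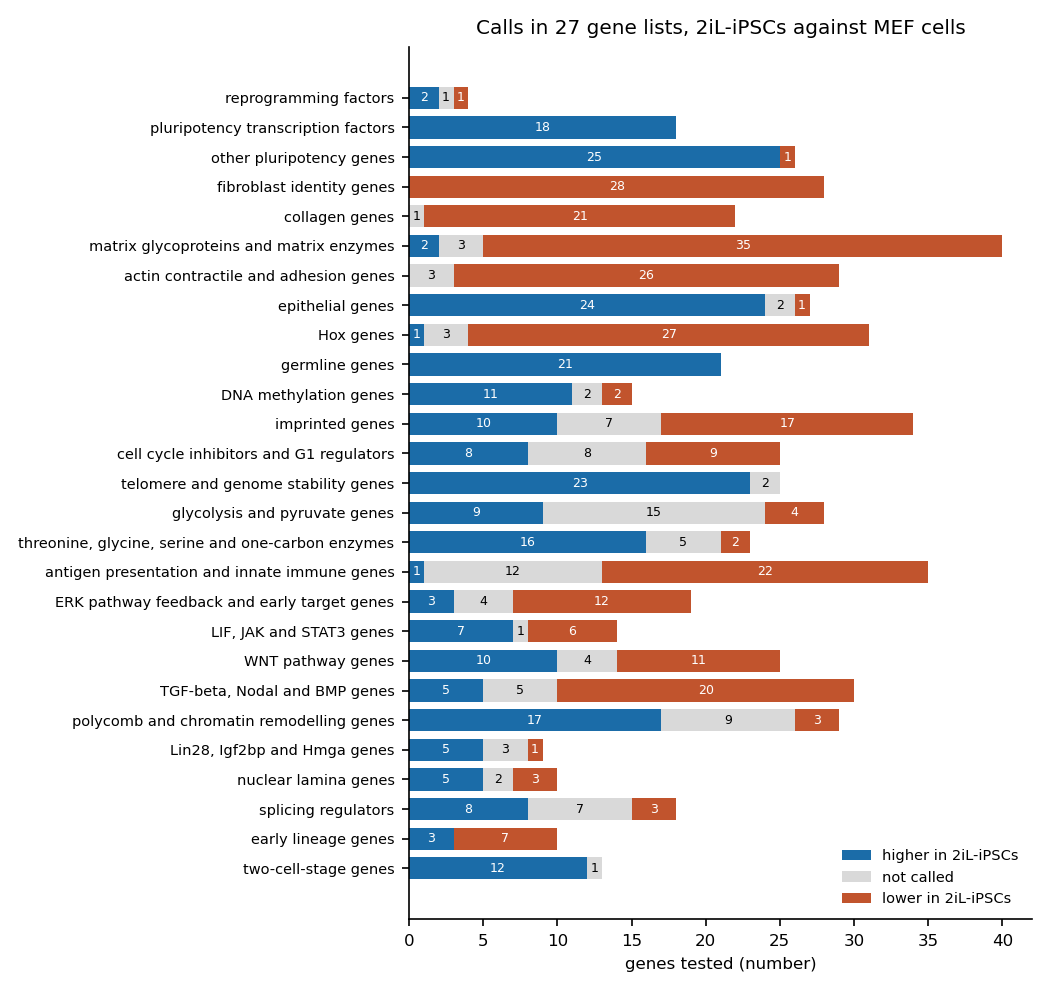
Stacked bars give, for each of the 27 gene lists on the y axis, the number of tested genes (x axis) that were higher in 2iL-iPSCs (blue), not called (grey) or lower (orange). Pluripotency, germline and genome stability lists hold almost only higher genes, fibroblast, collagen and Hox lists almost only lower genes, and imprinted, cell cycle and WNT lists hold both.

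Most of the changed genes were not called against the 2iL-ESCs, which is no test of equal levels. Klf5 (30.9 and 28.8 against a 2iL-ESC median of 58.6, limma adjusted p = 0.0014) and Cdh1 (95.8 and 79.5 against 151, adjusted p = 0.0020) were not called because the fold was under 2. Both comparisons also share the clone libraries. Of the 3969 genes higher than in MEF cells, 259 were above the mean of the 2iL-ESCs of the 3 days and 68 below it by the same call rule, and 3642 were not called. Of the 3877 genes lower than in MEF cells, 2369 could be tested against the 2iL-ESCs, of which 19 were above, 132 below and 2218 not called. The share called among all 12681 genes of that comparison was 5.64%, with 2.65% above and 2.99% below. Zfp42 was the member of the 10 largest rises that stood above the 2iL-ESCs, at 177 and 196 against 61.2 to 80.6. Klf4 and Tfap2c were below them, with Klf4 at 28.6 and 22.4 against a median of 58.3 and Tfap2c at 15.1 and 16.3 against 37.3. Genes of chromosome 8 stood apart in this comparison. The median difference from the 2iL-ESCs over its 739 tested genes was -0.28 in both clones, compared with -0.078 to 0.054 on the other autosomes, while the median difference from MEF cells on chromosome 8 was 0.09. The part of this shift in single chromosome 8 genes, such as Klf2, Cdh1 and Zfp42, was not tested. Against the OSKM-iPSCs, clones 1 and 3 that were reprogrammed in N2B27 with DOX and kept in DOX during daily culture, 7.73% of 13139 genes were called (2.93% higher and 4.8% lower in 2iL-iPSCs), and 6 of the 20 most changed genes were among them.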

How the data were processed

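RNA-Seq libraries were made by the authors from poly-A RNA (TRIzol, NEBNext Ultra). Reads were aligned with STAR 2.7.1a to mm10 (GRCm38), uniquely mapped reads were kept, and StringTie 2.0 gave the deposited coverage, FPKM and TPM of each gene. Cuffdiff 2.2.1 served the authors' own comparisons, which were not used. The annotation release and strand setting are not given in the sources used here, and read depth is unknown. FPKM was tested as deposited, coverage was not used, and TPM as deposited was an alternative.

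Each table listed 55471 genes. Of these, 2 with failed values in other libraries and 4193 on the X or Y chromosome were left out, which left 51276, and 11 repeated identifiers were summed. Genes over 1 FPKM in at least 1 of the libraries compared were tested on log2(FPKM + 1) with limma 3.58.1 (lmFit and eBayes with trend, R 4.3.3), using the libraries compared. Calls needed a Benjamini-Hochberg adjusted p under 0.05 and a 2-fold change of mean FPKM. Summaries and figures used Python 3.11.15, numpy 2.4.6, pandas 2.3.3, scipy 1.17.1 and matplotlib 3.10.9. On simulated data, 200 of 13709 genes, drawn only from the better expressed ones, were changed by 2 on the log2 scale. Of these 200, 100% were recovered, with 9 false calls. Recovery of changes in low genes, of changes nearer the 2-fold limit, or with a larger share of changed genes, was not tested.

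The members and gene lists were chosen with earlier results of these data known. Genes were named if they had the largest or smallest called change of a list, opposed its direction or opened it, were among the 10 largest rises or falls, were 1 of the 4 factors, or were among the 5 list genes that differed most between the clones. The 89 list genes named beyond this rule, Snrpf and the marker genes, were chosen after their values were seen. The values of 1 gene that the rule names are not reported here.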

Additional observations from a re-analysis of the deposited data

Results flagged for a closer look

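Of the 20 genes with the largest rises or falls against MEF cells, 6 differed between the 2 kinds of iPSCs by a test of the difference itself (limma, 2iL-iPSCs minus OSKM-iPSCs on the log2(FPKM + 1) scale, n = 2 clones each). Over all genes of that comparison, 7.73% of 13139 were called. The 20 genes were picked by their values in the same 2iL-iPSC libraries, which favours genes that are more extreme in 2iL-iPSCs. Since both kinds are set against the same MEF libraries, this is the difference between their changes from fibroblasts. Tdh was higher in 2iL-iPSCs by 2.56 (adjusted p = 0.012), with 77.0 and 42.7 in OSKM-iPSC clones 1 and 3. Esrrb was higher by 2.66 (23.1 and 54.1, adjusted p = 0.020), Nanog by 2.13 (37.1 and 55.0, adjusted p = 0.0091) and Fbxo15 by 1.99 (30.8 and 34.01, adjusted p = 0.0065). Tdgf1 was higher by 1.04 (152 and 122.8, adjusted p = 0.026). Igf2 was lower in 2iL-iPSCs, with a difference of -4.07 (62.2 and 21.7 in the OSKM-iPSCs, adjusted p = 0.018). The OSKM-iPSC clones themselves differed in genes that MEF cells express. Col1a1 had 28.1 in clone 1 and 0.11 in clone 3, Col1a2 36.1 and 0.13, and Acta2 80.4 and 0.71. Others, such as Twist1 (1.54 and 2.00) and H19 (337 and 917), went the other way. Acta2 (-2.34 ± 1.66, difference ± SE) and Thbs1 (-3.76 ± 1.02, 46.8 and 3.61) were not called. The part of fibroblast RNA in these differences was not tested. The OSKM-iPSCs were at passages 7 and 6, were reprogrammed without 2iL and stayed in DOX during daily culture, so passage, medium and continued DOX cannot be told apart.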

How the results depend on the processing

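The numbers of higher, lower and 2iL-ESC calls stayed within 1.5 times the reported numbers in each alternative run. Higher genes numbered 2711 to 5595, lower genes 2597 to 5180 and the share of higher genes among those called 46.57 to 52.51%, against 3969, 3877 and 50.59%. The upper ends came from testing with no filter on low values, where limma warned that its variance estimates are unreliable. Without 1 library, higher genes numbered 2939 to 3852, lower genes 3305 to 3673, their share 47.07 to 51.82% and calls against 2iL-ESCs 814 to 895 (715 reported). Scaling moved the median of all genes from 0.10 to 0.04 (median-ratio), 0.14 (quantile) and -0.02 (TPM). Of 270 named genes tested, 203 kept their call in every alternative run in which they were tested. Some low genes did not pass the stricter filters and were not tested in those runs. The sign turned for 6 genes that were not called. H2-K1 had -0.090 with TPM, -0.024 with median-ratio scaling and -0.009 to 0.085 without 1 library. Hmga1 had -0.096, -0.029 and, with quantile normalization, -0.120, and -0.192 to 0.273 without 1 library. Without 1 library, Krt18 ranged from -0.593 to 0.298, Peg10 from -0.844 to 0.535, Pkm from -0.226 to 0.054 and Eif1a from -0.393 to 0.095. The cause was not tested. No paired analysis was possible because clones 3 and 6 and MEF libraries 1 and 2 share no replicate numbers. Depth is unknown, so no counting error could be given.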
